A study of Mus musculus with 6 samples.

Results

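Adipocyte commitment is set by a small group of DNA-binding proteins, and the accessible chromatin around the genes of 9 of them was examined in inguinal white preadipocytes: Ebf1, Ebf2, Ebf3 and Ebf4 of the early B cell factor family, the zinc finger genes Zfp423, Zfp467 and Zfp521, and Gata2 and Gata3. The 9 genes were taken from the 55450 genes of the GENCODE M21 annotation by name, and their regions, each gene body with 50 kb on both sides (mm10), held 312 of the 179249 windows built from the peak lists. A window reaches 250 bp to both sides of a peak summit. ATAC-seq, in which a transposase inserts sequencing adapters into open DNA, had been run on 3 wild type (WT) and 3 Hmgn1-/- Hmgn2-/- (DKO) cultures of C57BL/6 mice. HMGN1 and HMGN2 are nucleosome-binding proteins, and in DKO both genes are deleted in the whole animal. The cells came from the inguinal fat of young adult mice by collagenase digestion, grew on collagen-coated plates and were collected on day 0, before the differentiation cocktail, so both genotypes had the same culture and no treatment. The labels do not say whether replicates came from separate animals, and p-values measure the spread between these 6 libraries only.

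EBF proteins are helix-loop-helix factors that bind a palindromic site and open chromatin early in the adipocyte lineage. EBF1 promotes white fat formation, and EBF2 marks and drives the brown and beige program. ZFP423 commits fibroblasts to the preadipocyte state, in which it also holds back the beige program, and ZFP467 favours fat over bone in stromal progenitors. ZFP521, the close relative of ZFP423, binds EBF1 and restrains it, and GATA2 and GATA3 are highly expressed in preadipocytes, where they block the passage to adipocytes. Ebf1, Ebf2, Zfp423 and Zfp467 are therefore treated as the 4 promoting genes and Zfp521, Gata2 and Gata3 as the 3 inhibiting genes, while Ebf3 and Ebf4 were given no class.

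The 5 stretches of DNA below come from windows described in the results and are shown as the plus strand of mm10 (GRCm38.p6). Capitals mark matches on either strand to the letters CCCNNGGGA, an EBF site, AGATAA, bound by GATA factors, TGANTCA, an AP-1 site, and TTGCNNAA, a C/EBP site. They are the 200 bases before the Ebf1 start (chr11:44617117-44617316), from the most open of the promoter windows taken within 1 kb of a start, and 201 bases at the centre of the most open window of all 9 loci, upstream of Ebf2 (chr14:67188742-67188942), of the intronic Gata3 window that was lower in every DKO library (chr2:9860811-9861011), of the window near Zfp467 listed in DKO only (chr6:48409990-48410190) and of the DKO-only window far upstream of Gata2 (chr6:88148610-88148810).
Ebf1 promoter: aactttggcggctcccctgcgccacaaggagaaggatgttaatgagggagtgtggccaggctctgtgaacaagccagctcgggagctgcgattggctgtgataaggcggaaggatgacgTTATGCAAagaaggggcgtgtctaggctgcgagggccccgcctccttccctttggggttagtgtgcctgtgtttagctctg
Ebf2 upstream: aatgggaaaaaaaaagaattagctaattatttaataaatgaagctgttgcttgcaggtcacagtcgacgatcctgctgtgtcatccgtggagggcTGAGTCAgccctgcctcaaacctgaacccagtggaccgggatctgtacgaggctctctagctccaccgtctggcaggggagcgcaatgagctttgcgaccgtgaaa
Gata3 intron: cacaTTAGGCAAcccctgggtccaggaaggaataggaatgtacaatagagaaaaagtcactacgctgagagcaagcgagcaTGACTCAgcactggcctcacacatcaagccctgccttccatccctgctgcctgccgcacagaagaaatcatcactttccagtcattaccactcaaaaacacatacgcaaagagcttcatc
Zfp467 locus: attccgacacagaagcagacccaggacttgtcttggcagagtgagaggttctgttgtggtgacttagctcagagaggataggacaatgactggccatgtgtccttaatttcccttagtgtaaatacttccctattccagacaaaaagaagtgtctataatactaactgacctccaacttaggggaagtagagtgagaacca
Gata2 upstream: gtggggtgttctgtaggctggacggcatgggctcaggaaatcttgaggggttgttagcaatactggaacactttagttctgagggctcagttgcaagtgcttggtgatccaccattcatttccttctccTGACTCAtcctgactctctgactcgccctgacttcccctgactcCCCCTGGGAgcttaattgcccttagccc
The Ebf1 stretch holds a C/EBP match and the Ebf2 stretch an AP-1 match, and part of the latter lies in an exon of a predicted noncoding RNA of RefSeq. The Gata3 stretch holds an AP-1 and a C/EBP match, the Gata2 stretch an AP-1 and an EBF match, and the Zfp467 stretch holds none of these letters.

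The 6 lists were close in size, with 299433 to 299620 summits, but not in strength. The weakest summit listed rested on a pileup, the number of reads stacked at the summit, of 8 in DKO replicate 3 and of 10 to 12 in the other libraries, and 90.3% of the summits of DKO replicate 3 had a q-value under 0.01 against 97.5% to 100% elsewhere. Summits within 1 kb of a start were listed in all 6 libraries for 7 of 9 preadipocyte and fibroblast genes, with Dlk1 missing in 1 library and Ly6a in 3. Their summed fold enrichment was 52.5 to 58.0 in WT and 43.7 to 56.4 in DKO. Of the leukocyte genes Ptprc, Cd68, Adgre1 and Cd3e, Cd68 alone was listed in all 6 libraries, and the summed fold enrichment was 5.38 to 8.29 in WT and 9.38 to 9.85 in DKO, without overlap. The endothelial list (2 of 3 genes in all 6) summed to 17.9 to 25.4 in WT and 19.9 to 25.0 in DKO. The Schwann cell list (1 of 2, with Sox10 in no library) summed to 19.4 to 25.4 in WT and 15.8 to 19.2 in DKO, without overlap. The epithelial list had 1 of 4 genes in all 6 libraries and summed to 9.34 to 17.0 in WT and 8.11 to 15.1 in DKO, and of the muscle list, 0 of 2, Myod1 was in no library and Pax7 in 1 WT library at 3.42. The part of other cells in the results below was not tested.

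Promoters were compared first, since they are where the level of each gene's open chromatin can be set side by side. Within 1 kb of a start, the promoters of Ebf1, Zfp521, Ebf2 and Ebf3 were the more open in both genotypes, with mean fold enrichments of 9.90 to 16.7. Those of the other 5 genes, where every library had a summit, had 4.22 to 6.01. Of the 9 promoter windows 0 passed the test between WT and DKO (limma, adjusted p from 0.525 to 0.988), where 0.0363% of all windows were called lower and 0.0234% higher. At an unadjusted p under 0.05 there were 0, against 11.8% of all windows. With 9 windows these counts are near the background and do not show that the promoters are unchanged. For each gene the window with the highest mean normalized value within 1 kb of an annotated start was taken. The order of the genes depends on this limit: a Gata3 window 1112 bp before a start, left out here, had means of 18.5 in WT and 18.4 in DKO. Values below are the fold enrichment over the local background that the peak caller gave. In bulk cultures, fewer cells with an open site and less opening per cell cannot be told apart.

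The Ebf1 promoter (chr11:44617035-44617535, centred 32 bp before the start) had fold enrichments of 16.9, 15.2 and 17.9 in WT and 13.4, 14.8 and 15.9 in DKO. The mean was 16.7 ± 1.37 (SD, n = 3) in WT and 14.7 ± 1.24 in DKO, and after quantile normalization, which gives all libraries the same distribution, the log2 change was -0.04 ± 0.11 (SE, limma adjusted p = 0.951). It ranked between 5898 and 14256 by p-value among the summits of each list, at the 94.8th percentile of all windows. The Ebf2 promoter window (chr14:67234285-67234785, in an intron, 109 bp before an internal start) had 11.3, 11.2 and 13.0 in WT and 10.2, 11.4 and 12.0 in DKO, and the log2 change was 0.10 ± 0.13 (adjusted p = 0.795). The groups overlapped at both EBF promoters. The window nearest to an Ebf2 start (chr14:67233135-67233635, in a UTR) was weaker, with no summit in DKO replicate 2, and had a log2 change of -0.48 ± 0.43 (adjusted p = 0.676).

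Zfp423 is transcribed from several starts. No window was centred within 1 kb of the 5′-most start. The nearest (chr8:87960392-87960892), centred just beyond that distance before it, had 6.37, 3.82 and 8.20 in WT and 5.84, 6.38 and 6.06 in DKO (log2 change 0.25 ± 0.22, adjusted p = 0.660). The chosen window (chr8:87804248-87804748) stood 59 bp before an internal start. Its fold enrichment was 4.14 and 6.68 in WT replicates 1 and 3, with no summit listed in WT replicate 2, and 6.15, 4.68 and 3.84 in DKO. The log2 change, with the lowest listed value in place of the missing one, was 0.67 ± 0.44 (adjusted p = 0.525). A neighbouring window inside the same 1 kb (chr8:87803424-87803924) went the other way, with a log2 change of -0.87 ± 0.38 (adjusted p = 0.409, with 1 DKO value put in) and no overlap between groups. The Zfp467 promoter (chr6:48445549-48446049, over the first exon) had 6.36, 5.60 and 5.60 in WT and 6.76, 5.20 and 4.92 in DKO (log2 change 0.11 ± 0.21, adjusted p = 0.877).

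Of the inhibiting genes, Zfp521 (chr18:13972419-13972919, over the first exon) had a promoter as open as that of Ebf2, with 13.3, 11.7 and 13.3 in WT and 12.1, 12.8 and 11.0 in DKO. The log2 change was 0.08 ± 0.11 (adjusted p = 0.817). The Gata2 promoter window (chr6:88193308-88193808, 333 bp before a start) had 5.59, 3.87 and 5.08 in WT and 5.20, 3.37 and 4.08 in DKO, with a log2 change of -0.05 ± 0.28 (adjusted p = 0.988). The window nearest to a Gata2 start (chr6:88198308-88198808, in a UTR) had no summit in WT replicate 1. With the lowest listed value put in there, its log2 change was 0.51 ± 0.42 (adjusted p = 0.637). The Gata3 promoter window (chr2:9878955-9879455, 605 bp before a start) had 5.80, 5.14 and 6.07 in WT and 5.75, 6.19 and 5.29 in DKO. These overlapped as deposited, whereas after normalization every DKO value was above every WT value, with a log2 change of 0.20 ± 0.18 (adjusted p = 0.690). The window nearest to a Gata3 start (chr2:9878347-9878847) had a log2 change of -0.05 ± 0.33 (adjusted p = 0.990).

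The genes without a class followed the same division. The Ebf3 promoter window (chr7:137267393-137267893, 105 bp before an internal start) had 12.6, 8.24 and 12.0 in WT and 10.7, 11.0 and 7.95 in DKO (log2 change 0.05 ± 0.15, adjusted p = 0.949). This internal start alone places Ebf3 among the more open promoters. The window at its 5′-most start (chr7:137314636-137315136) had 3.23, 3.78 and 4.01 in WT, 4.13 and 4.06 in DKO and no summit in DKO replicate 3. Of the remaining Ebf3 promoter windows, chr7:137266469-137266969 was lower after normalization (log2 change -0.55 ± 0.40, adjusted p = 0.575, with 1 DKO value put in) and chr7:137313096-137313596 higher (0.48 ± 0.30, adjusted p = 0.492), both without overlap. The Ebf4 window (chr2:130296272-130296772, 583 bp past an internal start) had 6.27, 4.59 and 7.17 in WT and 6.04, 5.89 and 4.41 in DKO (log2 change 0.04 ± 0.20, adjusted p = 0.980). The window nearest to an Ebf4 start (chr2:130295500-130296000) had a summit in 2 of the 6 libraries.

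**Figure D1:**
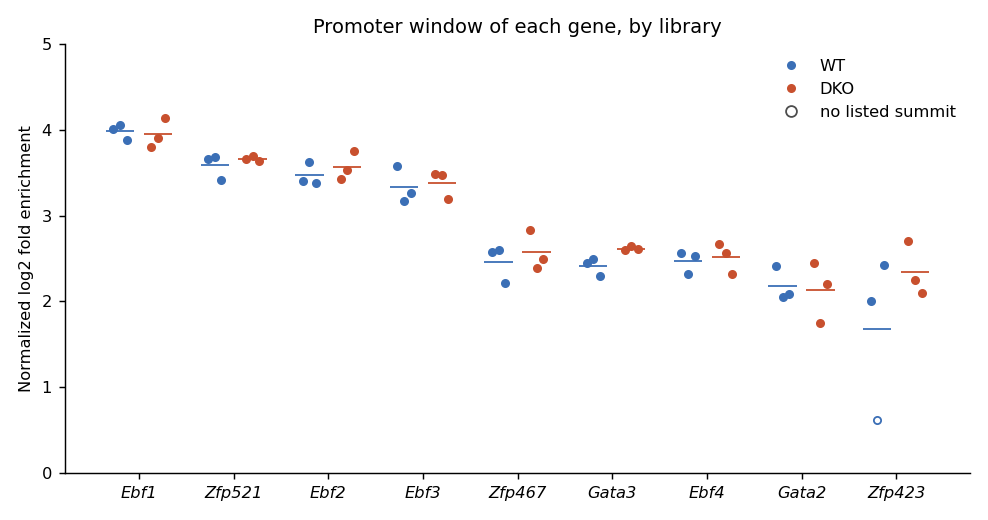
Normalized log2 fold enrichment of the promoter window of each gene, taken within 1 kb of a start, in the 3 WT and 3 DKO libraries, ordered by the mean. Short lines are group means and the open circle marks the library with no listed summit; the 4 genes on the left lie above 3.1 in every library and the WT and DKO points overlap at every gene but Gata3.

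Over the 6 libraries the mean normalized log2 fold enrichment of the promoter windows was 3.96 for Ebf1, 3.62 for Zfp521, 3.52 for Ebf2 and 3.36 for Ebf3, then 2.52 for Zfp467, 2.51 for Gata3, 2.49 for Ebf4, 2.16 for Gata2 and 2.01 for Zfp423. The lowest Ebf1 library, at 3.80, was above the highest Zfp521 library, at 3.69, and the lowest Ebf3 library, at 3.17, was above the highest Zfp467 library, at 2.84. All other neighbours in this order overlapped. The most alike pair was Zfp521 and Ebf2, an inhibitor and a promoter of commitment, with a Euclidean distance of 0.406 over 6 libraries.

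Whether the loci as a whole gained or lost sites was asked by counting summits. The 9 regions held 476, 500 and 512 summits in WT and 515, 525 and 510 in DKO, which is 0.159% to 0.175% of each list. Gata2 alone had counts that did not overlap: 9, 11 and 12 summits in WT against 17, 19 and 19 in DKO, a mean of 10.7 ± 1.53 against 18.3 ± 1.15 (SD, n = 3; exact permutation test, two-sided, p = 0.10, the smallest 3 against 3 libraries can give, adjusted over the 9 loci p = 0.45). Among 21755 protein-coding genes treated the same way, 8.78% had more summits in every DKO library and 3.81% fewer, so 1 of 9 loci with more and 0 of 9 with fewer is near that background. The Gata2 groups also stayed apart within 10 kb of the gene (6, 7 and 6 against 11, 12 and 12), in the gene body (4, 5 and 5 against 6, 8 and 8) and when summits in the same listed interval were counted once (8, 8 and 8 against 10, 14 and 15). Among the 50000 best summits of each list, Gata2 had 1, 1 and 2 in WT and 1, 2 and 1 in DKO, so the added summits ranked below the 50000 best.

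**Figure D2:**
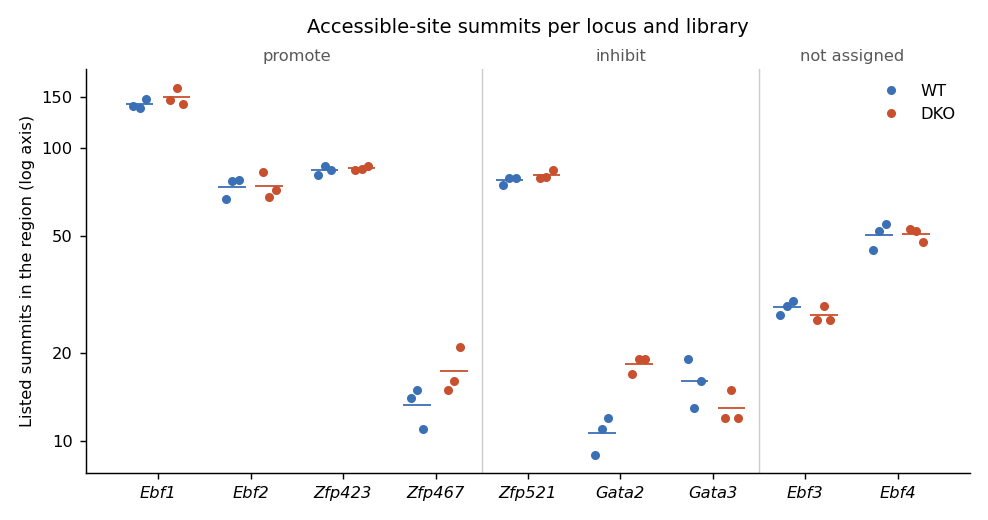
Number of listed summits in each region (gene body and 50 kb on each side) per library, on a log axis, with points for libraries and short lines for group means. Gata2 is the locus at which the 3 DKO counts, 17 to 19, are all above the 3 WT counts, 9 to 12.

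Ebf1, the longest gene, had 139, 137 and 147 summits in WT and 146, 161 and 141 in DKO. Zfp423 had 81, 87 and 84 against 84, 85 and 87, and Zfp521 had 75, 79 and 79 against 79, 80 and 84. Ebf2 had 67, 77 and 78 against 83, 68 and 72. Per 10 kb and library, the 9 regions ran from 1.09 summits (Gata3) to 2.96 (Ebf1), with 1.26 at Ebf3 and 2.90 at Ebf4. Ebf4 had 45, 52 and 55 against 53, 52 and 48, in a region shared with neighbouring genes such as Nop56 and Idh3b. Ebf3 had 27, 29 and 30 against 26, 29 and 26. Zfp467 had 14, 15 and 11 against 15, 16 and 21, and Gata3 had 19, 13 and 16 against 12, 15 and 12. All of these overlapped between genotypes.

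Of the 312 windows, 173 (55.4%) had a summit in all 6 libraries, against 58.0% of all windows. None was called lower and none higher (limma, adjusted p threshold 0.05 over all 179249 windows), where 0.0363% of all windows were called lower and 0.0234% higher. At an unadjusted p under 0.05 there were 28 (8.97%), 17 of them higher and 11 lower, against 11.8% of all windows. The median log2 change was 0.05 over the 312 windows and 0.01 over all windows. This balance depends on the scaling: with no scaling, where the median of all windows was -0.14 and that of the 312 windows -0.11, 5 were higher and 17 lower at an unadjusted p under 0.05.

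The classes are given by counts, as a description with no test. They compare quantile-normalized values, with the lowest value of a list in place of a missing one. At the 4 promoting genes, 23 of 201 windows (11.4%) were in these values higher in every DKO library than in any WT library and 6 (2.99%) lower. At the 3 inhibiting genes, 6 of 66 (9.09%) were higher and 8 (12.1%) lower. Over all windows these shares were 8.76% higher and 7.67% lower. In the fold enrichments as deposited, filled in the same way, the balance turned at the promoting genes: there 6 windows (2.99%) were higher and 15 (7.46%) lower, and 4 (6.06%) higher and 8 (12.1%) lower at the inhibiting genes, against 3.33% and 13.6% of all windows. This count was added after seeing the data. Both counts include windows that were listed in 1 genotype only, whose groups are apart by construction. These were 1 in WT and 4 in DKO at the promoting genes and 1 and 1 at the inhibiting genes. The 4 are thus among the 6 windows that were higher as deposited at the promoting genes. The median normalized log2 change was 0.07 at the promoting genes, 0.0013 at the inhibiting genes and 0.04 at Ebf3 and Ebf4, where 3 of 45 windows were higher and 2 lower. Gene by gene, Ebf1 had 15 of 98 windows (15.3%) higher and 3 (3.06%) lower after normalization, but 4 higher and 9 lower as deposited. Of the inhibiting genes, Gata2 had 3 of 9 windows higher and 0 lower on both scales. After normalization Gata3 had 1 of 10 higher and 3 lower and Zfp521 had 2 of 47 higher and 5 lower. Zfp467 had 3 of 11 higher and 0 lower, Ebf2 3 of 46 higher and 2 lower, and Zfp423 2 of 46 higher and 1 lower. As deposited, Gata3 had 0 higher and 3 lower, Zfp521 1 and 5, and Zfp467 2 and 0. On that scale Ebf2 had 0 higher and 4 lower, Zfp423 0 and 2, and Ebf3 and Ebf4 together 0 and 3. Most windows, 254 of 312, lay in introns.

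**Figure D3:**
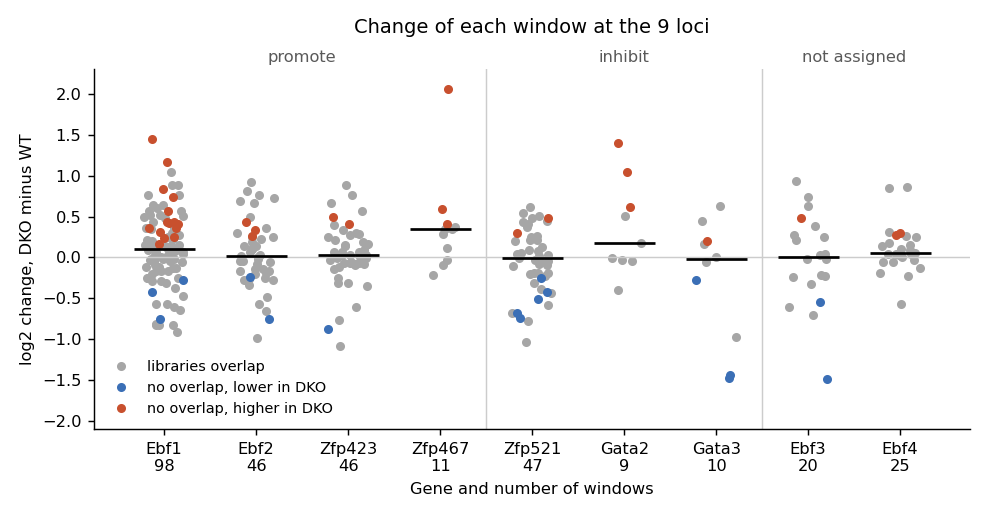
Log2 change (DKO minus WT) of every window at the 9 loci, with the number of windows under each gene. Black lines are medians, blue and red points are windows whose 3 normalized DKO values all lie below or above the 3 WT values; Ebf1 shows 15 red points against 3 blue (4 higher against 9 lower as deposited), and the outermost points, the Zfp467-locus window at 2.06 and the windows near -1.5 at Ebf3 and beside Gata3, have put-in values for 1 genotype.

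Gata3 held an intronic site that was open in WT and weak in DKO. In the intronic window chr2:9860661-9861161, 17.7 kb inside the gene from its nearest start, the fold enrichment was 17.5, 14.5 and 12.6 in WT and 6.15, 5.67 and 3.28 in DKO. The summit pileups were 59, 50 and 42 in WT and 21, 19 and 9 in DKO. The highest DKO value was thus far below the lowest WT value. The mean was 14.9 ± 2.47 (SD, n = 3) in WT and 5.03 ± 1.54 in DKO, a normalized log2 change of -1.44 ± 0.25 (limma adjusted p = 0.0922), just short of the threshold. By p-value the window ranked 28450 to 72003 in the WT lists and 126419 to 255110 in the DKO lists. Restricted to the 103986 windows that every library listed, the fit called it, with a log2 change of -1.44 (adjusted p = 4.34e-04) as 1 of 173 windows at the 9 loci (0.578%), where 0.59% of those windows were called lower and 0.285% higher. With median centring in place of quantile normalization it was also called (adjusted p = 0.0420). The other alternatives did not call it (adjusted p from 0.102 to 0.394).

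Of the 10 windows at the Gata3 locus, 3 were lower in DKO without overlap, this window among them, and the strongest was not. The strongest window, 1112 bp before a start (chr2:9879462-9879962), had 19.4, 11.9 and 24.3 in WT and 20.5, 16.6 and 18.1 in DKO, with a log2 change of 0.16 ± 0.16 (adjusted p = 0.729). A distal window, chr2:9818123-9818623, had 18.9, 17.97 and 23.9 in WT and 14.8, 15.4 and 15.4 in DKO, all lower, with a log2 change of -0.28 ± 0.10 (adjusted p = 0.288). A window in an intron of the neighbouring Taf3 (chr2:9921367-9921867), a TFIID subunit gene, was listed in WT only, with 4.67, 3.42 and 5.87 and pileups of 15, 11 and 19.

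Near Zfp467 a window was listed in DKO only. The window chr6:48409840-48410340 lies 33.9 kb past a Zfp467 start, outside that gene and in an intron of its neighbour Krba1, so the gene it belongs to cannot be told from its position. It had no summit in any WT list and fold enrichments of 7.27, 6.80 and 4.50 in DKO, with pileups of 25, 23 and 13. It entered the set of windows through its DKO summits alone, and its 3 WT values in the fit are 1 value put in for all of them. The fitted change (2.06 on the log2 scale) and every p-value of this window therefore set DKO against a constant and are no test of a difference. It is the 1 of 312 windows called higher with median centring, beside the intronic Gata3 window, the 1 called lower, against 0.0485% and 0.0876% of all windows. The strongest window of the region, at the Krba1 start (chr6:48395327-48395827), had 9.58, 8.76 and 10.8 in WT and 6.14, 9.55 and 8.67 in DKO.

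At Gata2 the 3 windows without overlap were higher in DKO and lay upstream of the gene, and none passed the test. The window 45.2 kb upstream (chr6:88148460-88148960) had no WT summit and 4.75, 3.68 and 3.28 in DKO, with pileups of 16, 12 and 9, and it too has only a put-in value for WT, so no fold or test is given. The window 18975 bp upstream (chr6:88174666-88175166) had 6.72, 5.98 and 5.58 in WT and 9.51, 8.50 and 6.88 in DKO, a log2 change of 0.61 ± 0.19 (adjusted p = 0.212) without overlap. The window 4090 bp upstream (chr6:88189551-88190051), inside the long noncoding RNA gene Gm38708, had 3.80 and 4.82 in WT, no summit in WT replicate 3, and 6.92, 6.24 and 4.89 in DKO (log2 change 1.04 ± 0.41, adjusted p = 0.351, with the lowest listed value in place of the missing one). The strongest Gata2 window, in an intron (chr6:88203293-88203793), did not share this: it had 13.8, 11.7 and 16.4 in WT and 12.2, 12.8 and 11.2 in DKO, a log2 change of -0.04 ± 0.10 (adjusted p = 0.939).

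**Figure D4:**
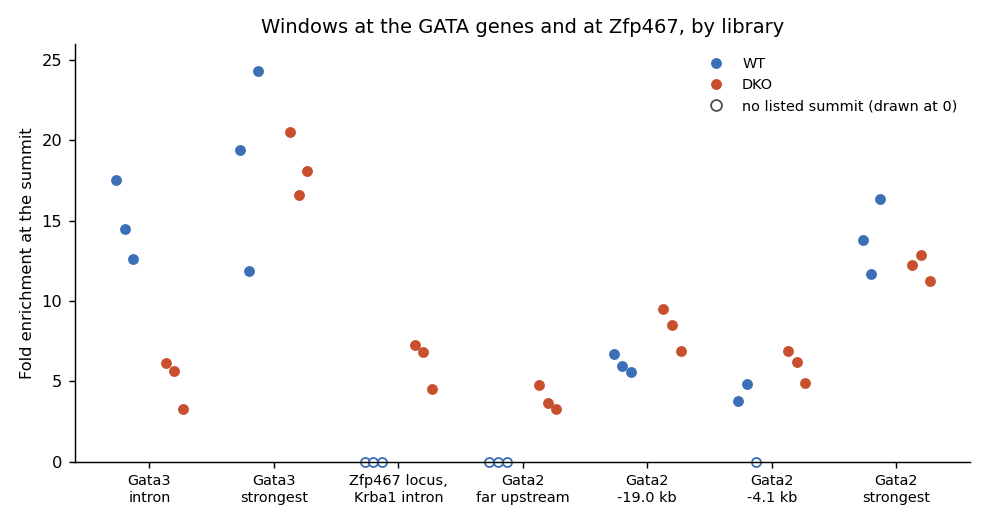
Fold enrichment at the summit, as deposited, for windows at Gata3, the Zfp467 locus and Gata2 in each library, with open circles at 0 for libraries with no listed summit. The intronic Gata3 window lies at 12.6 to 17.5 in WT and at 3.28 to 6.15 in DKO, while the strongest windows of Gata3 and Gata2 overlap between genotypes.

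**Figure D5:**
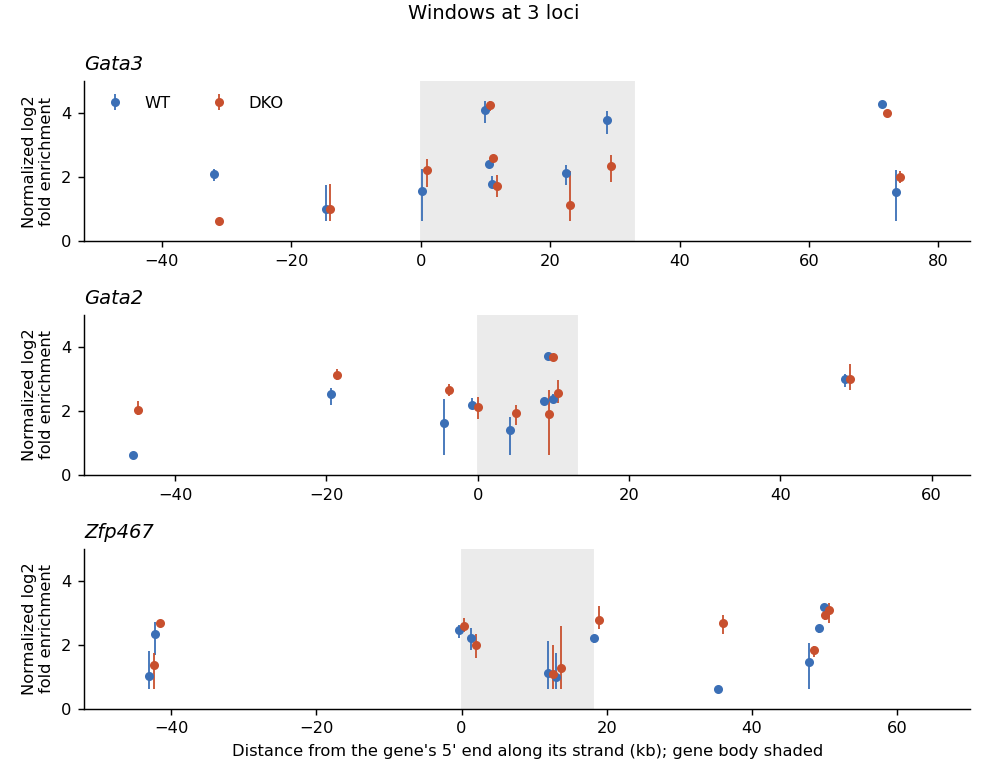
Normalized log2 fold enrichment of every window at Gata3, Gata2 and Zfp467 against the distance from the gene's 5′ end along its strand, with points for the mean of 3 libraries, bars for the lowest and highest library, and the gene body shaded. The Gata3 window near 29 kb and 3 of the 4 Gata2 windows to the left of the gene separate by genotype; points at 0.62 have no listed summit.

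At Ebf1, which has the most windows, the promoter was the window with the highest mean value. The 15 windows that were higher in every DKO library after normalization had log2 changes from 0.16 to 1.45, and 4 of them were also higher as deposited. Of these 4, 3 had no WT summit and 1 had none in WT replicate 3, so all 4 rest on put-in values, and of the Ebf1 windows that every library listed 0 were higher as deposited. The window with the smallest p (chr11:44875721-44876221, in an intron) was listed in DKO only, with 4.18, 5.28 and 2.95, so its fit sets DKO against a constant. A window 680 bp before the start (chr11:44616387-44616887), beside the open promoter, was likewise listed in DKO only, at 2.51, 2.45 and 3.10. The most open windows without overlap in each direction, both intronic, were taken after their values were seen. The higher one, chr11:44867426-44867926, had 13.0, 11.5 and 15.1 in WT and 13.3, 14.8 and 13.9 in DKO, a log2 change of 0.25 ± 0.10 (adjusted p = 0.367), and overlapped as deposited. The lower one, chr11:44657894-44658394, had 11.7, 11.1 and 17.3 in WT and 10.5, 8.89 and 9.59 in DKO, a log2 change of -0.28 ± 0.14 (adjusted p = 0.454), and stood apart on both scales.

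The Ebf2 region held the most open window of all 9 loci, though the gene it belongs to cannot be told from its position. The window chr14:67188592-67189092, 44.5 kb upstream of Ebf2 in an intron of the long noncoding RNA gene Gm30806, had 22.5, 21.9 and 24.7 in WT and 24.6, 24.4 and 22.1 in DKO. It ranked between 561 and 1336 in each list, at the 99.5th percentile of all windows, and its log2 change was 0.14 ± 0.09 (adjusted p = 0.489). The smallest p at Ebf2 belonged to chr14:67202967-67203467, with a log2 change of 0.34 ± 0.14 (adjusted p = 0.361) and no overlap after normalization.

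Zfp423 and Zfp521, close relatives with opposite roles, each had a strongest window inside an intron that did not differ. For Zfp423 (chr8:87927309-87927809) it had 16.4, 10.9 and 19.5 in WT and 14.0, 17.4 and 12.2 in DKO (log2 change 0.06 ± 0.14, adjusted p = 0.905). For Zfp521 (chr18:13751907-13752407) it had 15.2, 18.3 and 21.7 in WT and 15.3, 17.8 and 13.5 in DKO (log2 change -0.10 ± 0.13, adjusted p = 0.803). The Zfp521 window with the smallest p, chr18:13921250-13921750, had 10.5, 6.51 and 11.6 in WT and 6.51, 6.10 and 3.40 in DKO, a log2 change of -0.68 ± 0.24 (adjusted p = 0.294). For Zfp423 the smallest p belonged to chr8:87847651-87848151, with 6.10, 3.98 and 4.70 in WT, 4.19 in DKO replicate 1 and no summit in the other DKO libraries (log2 change -1.08 ± 0.45, adjusted p = 0.389, with 2 of the 3 DKO values put in).

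The strongest windows of Ebf3 (chr7:137229346-137229846, log2 change -0.02 ± 0.13, adjusted p = 0.986) and of Ebf4 (chr2:130350340-130350840, 0.0025 ± 0.13, adjusted p = 0.999) also overlapped. At Ebf3 the smallest p belonged to a window 48.1 kb upstream (chr7:137362274-137362774) that was listed in WT only, with 3.84, 3.60 and 6.80, and whose fit sets WT against a constant. At Ebf4 it belonged to chr2:130401921-130402421, with a log2 change of 0.28 ± 0.13 (adjusted p = 0.421).

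Windows listed in all 3 libraries of a genotype and in none of the other were few. There were 3 WT-only windows, at Ebf2, Ebf3 and beside Gata3, and 5 DKO-only windows, 3 at Ebf1, 1 at Gata2 and 1 near Zfp467. These are 0.962% and 1.60% of the 312, against 1.23% and 1.14% of all windows. Their pileups ran from 8 to 26, where the lists start at 8 to 12, so a library without a summit there may still hold reads that fell short of the list. They entered the set through 1 genotype and carry a constant for the other, which fixes their direction and narrows their spread, so nothing is read from their fits. All of the 2 lower and 4 higher calls at the 9 loci made by limma without a trend on the mean (0.641% and 1.28%, against 1.17% and 1.14% of all windows) were windows of this kind.

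The letters of 4 binding sites were counted in the windows, on both strands. The EBF letters CCCNNGGGA were in 28 of 312 windows (8.97%) against 8.70% of all windows, the GATA letters AGATAA in 74 (23.7%) against 23.9%, the AP-1 letters TGANTCA in 117 (37.5%) against 36.6% and the C/EBP letters TTGCNNAA in 79 (25.3%) against 24.0%. Windows at the inhibiting genes held AP-1 letters in 33 of 66 and C/EBP letters in 25 of 66 (37.9%), and those at the promoting genes in 71 (35.3%) and 43 (21.4%) of 201. The EBF letters were in 2 of the 98 Ebf1 windows and in 8 of the 46 Zfp423 windows, whose median GC content was 43.3% and 52.9%. These shares are descriptions of sequence, and a match is not a bound site.

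Promoters of a wider set of commitment genes were counted in the same way. Of 26 further regulators, 24 had a promoter window, among them Pparg and Cebpa, the master factors of the fat cell, and Smad1 and Smad4, which carry the BMP signal. None was called (limma, 5 at an unadjusted p under 0.05, all higher, against 11.8% of all windows in either direction). Of their normalized log2 changes 18 were positive and 6 negative, where 48.6% of all windows were negative. In 5 windows (Nr3c1, Zfpm2, Smad1, Smad4 and Wisp2) every DKO library was higher after normalization and in 0 lower, against 8.76% and 7.67% of all windows. These 5 overlapped as deposited, where 1 window (Cebpa) was higher and 2 (Zfpm1 and Gata6) lower, against 3.33% and 13.6% of all windows on that scale. Smad4 had the lowest adjusted p, 0.159, with a log2 change of 0.48 ± 0.12, and Cebpa had a log2 change of 0.37 ± 0.15 (adjusted p = 0.388).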

How the data were processed

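The data were the ATAC-seq peak lists of 6 libraries, 3 from each genotype. Per the labels and the study's methods, the authors ran bcl2fastq 2.17, cutadapt 1.18, Bowtie2 2.3.4.3 (mm10), removed duplicate and mitochondrial reads, and called peaks per library with MACS2 (version not given in the sources used here). The list names state p 0.01, a cap at the best peaks ("300K") and a blacklist filter. The deposited columns are a display score, the fold enrichment (a ratio to local background), −log10 p-values and −log10 q-values, and the summit offset in bases. No reads or coverage were used here, so sites outside a list have no value. Library depth is unknown. Summit pileups, recovered from fold enrichment and p-value under the Poisson model, were whole within 0.05 for 100% of summits.

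Here, windows of 250 bp to both sides of a summit were built, best p-value first, overlapping windows were dropped, and those with q under 0.01 in at least 2 libraries were kept (chromosomes 1 to 19 and X). A missing value took the lowest fold enrichment of its list. Log2 values were quantile-normalized and fitted with limma 3.58.1 in R 4.3.3 (trend, two-sided, DKO minus WT, no covariates), with Benjamini-Hochberg adjustment over all windows. Summit counts were compared by exact permutation. The scripts were tested on simulated data. Groups came from the sample titles, and replicate numbers were not used to pair libraries. The text names, for each of the 9 genes, the promoter window, the strongest window and the window with the smallest p, and windows of 1 genotype. Genes, lists, motifs and tests were chosen with earlier results of these data known. GENCODE M21 gave genes and RefSeq GRCm38.p6 the sequences. Alternatives were other scalings, values, window sets, flanks and leaving out each library.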

Additional observations from a re-analysis of the deposited data

How the results depend on the processing

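The count of called windows at the 9 loci, 0 lower and 0 higher, rose to 1 and 1 with median centring, to 1 and 0 over the windows that every library listed, and to 2 and 4 with eBayes without trend. The higher call with median centring and all 6 without trend are windows listed in 1 genotype, fitted against a constant, from which nothing is read. It was 0 and 0 with no scaling, −log10 p, summit pileup, the 50000 best summits, both narrower flanks, the replicate block and each library left out. Over all windows the replicate block called 0 of 179249 and a fit with a library left out 0 or 1. A count of 0 at the 9 loci says little there. The 50000 best summits gave 490 lower and 252 higher of 34789, but held 47 windows at the 9 loci. The main fit gave 65 lower and 42 higher of 179249, so a count of 0 at the 9 loci says little in either of these fits. The deviations of same-numbered libraries correlated at 0.0054, -0.011 and -0.0071, so the numbers were not read as pairs. The median change of 0.05 is the same with the replicate block by construction, since the design is balanced. With no scaling the median of all windows was -0.14 and that of the 312 windows -0.11, and at the promoting genes 6 windows in place of 23 were higher without overlap and 15 in place of 6 lower. With median centring, also counted after seeing the data, these were 26 and 6. The median change of the 312 windows was 0.025 with summit pileup, 0.015 with the 50000 best summits, 0.0635 with 10 kb flanks and 0.0636 with the gene body, and 0.039 to 0.092 with each library left out. The intronic Gata3 window changed by -1.67 to -1.18 with each library left out (limma adjusted p from 0.176 to 0.244), and over all alternatives its adjusted p ran from 4.34e-04 to 0.394. The Zfp467-locus window keeps put-in values for WT in these fits, so its changes and p-values there are no test and are not given.

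Loci with separate summit counts, 1 in all, were 0 among the 50000 best summits and 1 to 3 with a library left out: 3 without WT replicate 2, DKO replicate 1 or DKO replicate 2. Windows listed in WT only, 3, were 1 with 10 kb flanks or the gene body, 0 among the 50000 best summits, 6 where an interval had to cover 0.5 of the window, and 4 to 8 with a library left out (8 without DKO replicate 2). Those in DKO only, 5, were 3, 2, 0, 0 and 5 to 10 (10 without DKO replicate 2).

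Window changes near 0 turned sign, and so did some larger differences in summit counts. With no scaling, promoter windows were at -0.077 (Ebf2), -0.14 (Ebf3), -0.13 (Ebf4), -0.069 (Zfp467) and -0.092 (Zfp521), and the strongest windows at -0.11 (Ebf4) and -0.081 (Zfp423). With −log10 p, promoter windows were at -0.15 (Ebf2), -0.040 (Zfp521) and 0.064 (Gata2), and the strongest Gata2 window at 0.023. With summit pileup these were -0.19, -0.070, 0.20 and 0.070, and the strongest Zfp467 window 0.061. The strongest Ebf3 window was at 0.56 in the 50000 best summits. Summit counts (DKO minus WT) turned from 8.33 to -3.33 (Ebf1) and from 3.33 to -0.667 (Zfp521) in the 50000 best summits. At Zfp467 they turned from 4.0 to -1.33 and -1.0 with 10 kb flanks and the gene body. With each library left out, promoter windows ran from -0.13 to 0.035 (Ebf1), -0.036 to 0.17 (Ebf3), -0.032 to 0.14 (Ebf4), -0.017 to 0.20 (Zfp467), -0.0086 to 0.13 (Zfp521) and -0.21 to 0.15 (Gata2). The strongest windows ran from -0.17 to 0.059 (Ebf3), -0.098 to 0.087 (Ebf4), -0.074 to 0.15 (Zfp423), -0.21 to 0.11 (Zfp467), -0.23 to 0.0038 (Zfp521) and -0.038 to 0.30 (Gata3), and summit counts from -4.0 to 3.5 (Ebf2), -2.5 to 2.5 (Ebf4) and -0.167 to 2.83 (Zfp423). The cause of these shifts was not tested.

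Each list ends at a p-value rank, so a missing summit sets no level, and the weakest windows rest on few reads, down to a pileup of 8 in the DKO replicate 3 list. Separate summits in the same interval share reads. Neighbouring genes share the regions: 6 windows at Ebf4, 4 at Ebf2, 2 at Zfp467, 1 at Ebf1 and 1 at Gata2 lay at the promoter of another gene. At Gata3 a window lay in an intron of Taf3.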
